A study of Mus musculus with 3 samples.

Results

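TRAV14D-1, TRAV14D-2 and TRAV14D-3-DV8 are the 3 copies of the mouse TRAV14 family whose names carry the letter D. Productive T cell receptor (TCR) α chains that used them were followed through 6 sorted thymocyte populations. A cell was counted when its barcode was in the expression matrix, it had exactly 1 productive α contig, and the V gene called for that contig was one of these copies. This gave 1979 of 6982 cells with 1 productive α chain. TRAV14D-3-DV8 made up 1781 of them, TRAV14D-2 for 198 and TRAV14D-1 for 0.

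The cells came from 1 pool of thymocytes from 8 female mice, aged 7 to 12 weeks, of the strain labelled C56Bl/6- Tcliβ x TCRα+/- x Foxp3-GFP. All groups thus shared the TCliβ transgene, which fixes the TCR β chain, a single intact TCRα allele, a Foxp3-GFP reporter and a sort for surface Vα2, the protein that TRAV14 genes encode. The populations, each with its own hashtag, were CD4+CD8+ double-positive thymocytes (DP), CD4 single-positive cells sorted as negative for CD73, CD25 and Foxp3 (CD4 SP), CD25+ and Foxp3lo regulatory T cell progenitors (CD25+ TRP and Foxp3lo TRP), and regulatory T cells sorted as CD73-negative (CD73- Treg) or CD73-positive (CD73+ Treg). DP cells were taken from whole thymus and all others after CD8 depletion. There was 1 sample per population, so no spread between replicates and no test. Shares carry exact Clopper-Pearson 95% intervals for counting error alone, although cells that share a clone are not independent. Family members were 91.3% of the chains in DP and at least 98.2% in each other population. The sorts could not be checked by marker expression, because the matrix rows used here carry no gene names.

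An α chain is made when a TRAV gene is joined to a TRAJ segment, with bases removed and added at the joint that becomes CDR3, the loop facing the peptide. Because V genes lie upstream and J segments downstream, a joint can be deleted by a later one between a V gene further upstream and a J segment further downstream. DP thymocytes rearrange in this way until a receptor is selected or the cell dies.

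In the GRCm38 build all 3 copies are on chromosome 14, plus strand, annotated as TCR V genes. TRAV14D-1 is at chr14:52855614-52856166, TRAV14D-2 at chr14:52948568-52949169 and TRAV14D-3-DV8 at chr14:53078452-53079045. All 3 lie upstream of the other TRAV14 copies: TRAV14N-1 starts at 53166626 and TRAV14-3, the copy nearest the J segments, at 53763173. From the end of the gene to TRAC, the constant gene, TRAV14D-3-DV8 is 1141 kb away and TRAV14-3 is 457 kb away.

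The V sequences are shown because the calls rest on them. Over the last 280 bases of the annotated transcripts, up to the V end at which joining begins, the 3 copies differ at 19 positions. The stretch below, positions 74 to 163 of those 280, is within the second exon and holds 15 of the 19, in capitals. It runs at chr14:52855960-52856049 for TRAV14D-1, chr14:52948963-52949052 for TRAV14D-2 and chr14:53078839-53078928 for TRAV14D-3-DV8.
TRAV14D-1: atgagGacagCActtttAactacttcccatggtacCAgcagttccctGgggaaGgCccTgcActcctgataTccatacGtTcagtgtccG
TRAV14D-2: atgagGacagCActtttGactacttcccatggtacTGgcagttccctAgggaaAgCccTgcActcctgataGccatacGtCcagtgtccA
TRAV14D-3-DV8: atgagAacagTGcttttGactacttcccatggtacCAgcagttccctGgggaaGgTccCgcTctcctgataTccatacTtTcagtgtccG
TRAV14D-3-DV8 differs from TRAV14D-2 at 18 and from TRAV14D-1 at 11 of the 280 bases. Its nearest relatives over these bases are TRAV14-3, at 8 differences, and TRAV14N-3, at 9. The annotated transcripts of TRAV14D-2 and TRAV14N-2 are identical over their whole 464 bases, and those of TRAV14D-1 and TRAV14N-1 over their whole 415 bases. A transcript of either identical pair cannot be assigned to 1 gene by these bases.

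TRAV14D-1 had no productive contig in any barcode. It was called for 2 contigs, joined to TRAJ24 and TRAJ37, both not productive and both in barcodes outside the matrix. The count of 0 of 6982 cells allows a share of up to 0.043%. TRAV14N-1, the copy with the same transcript, was called in 995 cells. With identical transcripts, the count of calls does not show which of the 2 genes a chain came from.

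The calls of TRAV14D-2 and TRAV14N-2 followed contig length. Taking off the CDR3, the contigs had a median length of 485 bases for TRAV14D-2 (481 to 564) and 558 bases for TRAV14N-2 (497 to 569). Contigs of 490 bases or fewer, a limit set after these values were seen, made up 174 of 198 TRAV14D-2 cells and 0 of 645 TRAV14N-2 cells. Among the 669 longer contigs of either copy, 24 were called TRAV14D-2 (3.59%, 95% interval 2.31 to 5.29). The median contig had 17 unique molecular identifiers (UMIs) for each copy, and 900 reads for TRAV14D-2 against 778 for TRAV14N-2. Within CD4 SP the medians were 21 UMIs for TRAV14D-2 and 17 for TRAV14N-2. For TRAV14D-3-DV8 the median was 18 UMIs, and 77 of 1781 contigs (4.32%) were 490 bases or fewer.

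**Figure D1:**
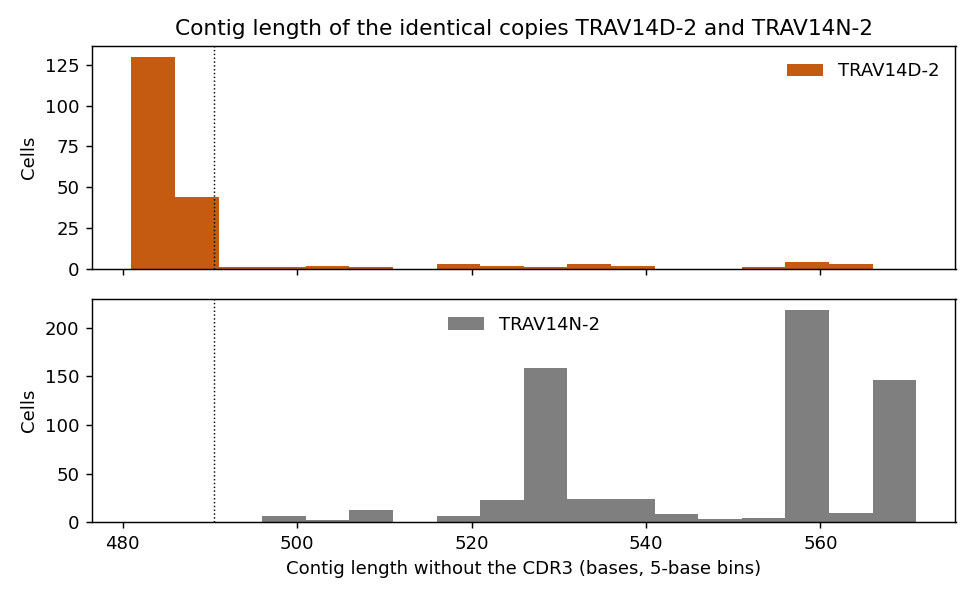
Contig length without the CDR3 (x axis, bases, in bins of 5) against the number of cells (y axis) for TRAV14D-2 above and TRAV14N-2 below, whose annotated transcripts are identical. The dotted line follows 490 bases: 174 of 198 TRAV14D-2 cells and 0 of 645 TRAV14N-2 cells lie to its left.

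The share of chains called TRAV14D-2 was highest in DP cells and lowest in CD73+ Treg. It was 3.79% for DP (48 cells, 2.81 to 5.00), 3.68% for CD4 SP (68 cells, 2.87 to 4.64), 2.86% for CD25+ TRP (51 cells, 2.14 to 3.74), 1.99% for Foxp3lo TRP (16 cells, 1.14 to 3.21), 1.35% for CD73- Treg (3 cells, 0.278 to 3.88) and 1.14% for CD73+ Treg (12 cells, 0.588 to 1.97). Neighbours in that order had overlapping intervals, while the interval of CD73+ Treg lay below those of DP, CD4 SP and CD25+ TRP. CD73+ Treg stood at 0.309 times the CD4 SP share. Without CDR3 nucleotide sequences found with several TRAV14 copies this separation ended, with 1.09% for CD73+ Treg (0.472 to 2.14) against 1.31% for CD4 SP (0.718 to 2.19). The share was then 2.85% for DP (1.90 to 4.09) and lowest for Foxp3lo TRP, at 0.607% (0.125 to 1.76). Among the 8 TRAV genes with a share of 1% or more in either population, 2 (25%) were lower by 1.5-fold or more in CD73+ Treg against CD4 SP, namely TRAV14D-2 and its twin TRAV14N-2. In Foxp3lo TRP against CD4 SP, 1 of 8 (12.5%) was lower, TRAV14D-2, with intervals that overlapped.

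The identical pair taken as 1 gene followed another course, with its highest share in CD4 SP. TRAV14D-2 or TRAV14N-2 made up 10.8% for DP (9.16 to 12.7), 15.8% for CD4 SP (14.2 to 17.6), 12.2% for CD25+ TRP (10.7 to 13.8), 11.7% for Foxp3lo TRP (9.55 to 14.1), 9.87% for CD73- Treg (6.29 to 14.6) and 7.47% for CD73+ Treg (5.96 to 9.23). The interval of CD4 SP lay above those of every population except CD73- Treg. With each different CDR3 nucleotide sequence counted once, the pair made up 11.8% of sequences for CD4 SP (10.1 to 13.7) against 10.5% for DP (8.82 to 12.3), and these intervals overlapped. Within the pair, the part called TRAV14D-2 was highest for DP, at 35.0% (27.1 to 43.6). It was 23.2% for CD4 SP (18.5 to 28.5), 23.4% for CD25+ TRP, 17.0% for Foxp3lo TRP, 13.6% for CD73- Treg and 15.2% for CD73+ Treg. Short contigs of the pair were 46 of 137 in DP, 61 of 293 in CD4 SP and 11 of 79 in CD73+ Treg.

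TRAV14D-3-DV8 was the copy with most cells of the 9 in each population, close to TRAV14-1 in DP (16.7%, 14.7 to 18.9). Its share was 16.9% for DP (214 of 1266 cells, 14.9 to 19.1), 25.9% for CD4 SP (478 of 1849, 23.9 to 27.9), 28.7% for CD25+ TRP (512 of 1783, 26.6 to 30.9), 25.2% for Foxp3lo TRP (203 of 804, 22.3 to 28.4), 28.7% for CD73- Treg (64 of 223, 22.9 to 35.1) and 29.3% for CD73+ Treg (310 of 1057, 26.6 to 32.2). By cells, DP stood below each of the other 5 populations with its interval apart, and the intervals of those 5 all overlapped. CD4 SP cells used the copy at 1.53 times the DP share. Among the 8 TRAV genes with 1% or more in either population, 2 (25%) were higher by 1.5-fold or more in CD4 SP against DP, namely TRAV14D-3-DV8 and TRAV14N-2. Counted by different nucleotide sequences, the copy made up 26.0% for CD4 SP (23.6 to 28.4) against 17.4% for DP (15.3 to 19.6), intervals still apart. For CD73+ Treg it made up 22.3% of sequences (19.5 to 25.4), an interval that overlapped that of DP. Exactly 1 productive α chain was found for 75.9% of CD4 SP cells but 41.9% of DP cells. The median depth was 2718 UMIs for CD4 SP and 1457 UMIs for DP, and the part of depth and chain recovery in this difference was not tested.

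**Figure D2:**
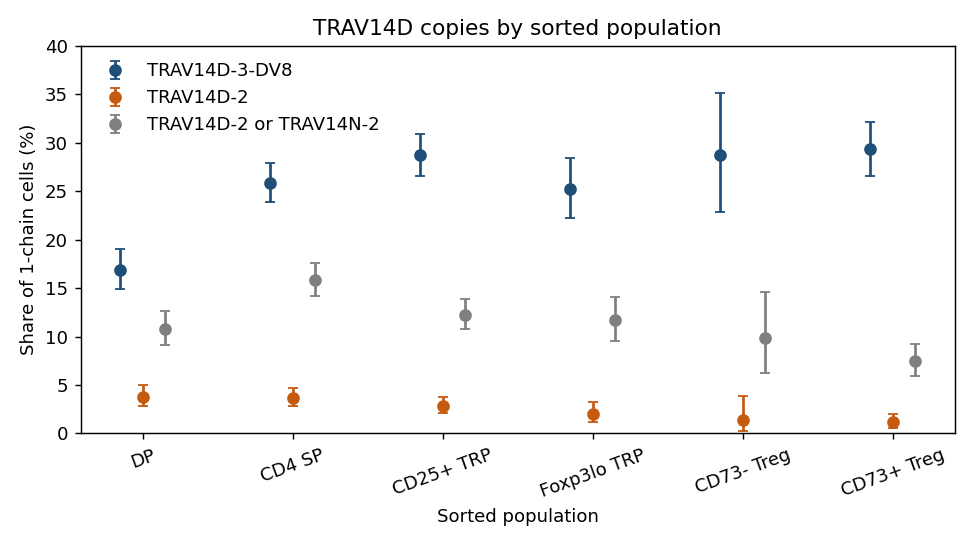
Share of cells with 1 productive TCRα chain (y axis, percent) that used TRAV14D-3-DV8, TRAV14D-2, or either of the identical copies TRAV14D-2 and TRAV14N-2, by sorted population (x axis). Points are shares and bars exact 95% intervals for counting error. TRAV14D-3-DV8 stands at 16.9% in DP and between 25.2% and 29.3% in the other populations.

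The low DP share of TRAV14D-3-DV8 was not even across the authors' DP clusters, which are known here by number only. The copy made up 26.2% of chains in cluster 6 (152 of 580, 22.7 to 30.0), 12.1% in cluster 8 (26 of 214, 8.09 to 17.3) and 5.73% in cluster 4 (20 of 349, 3.54 to 8.71). Cluster 6 thus matched the CD4 SP share of 25.9%, and its interval lay above those of clusters 8 and 4. Of smaller DP clusters, cluster 2 stood at a like share, 26.5% (9 of 34, 12.9 to 44.4), and cluster 11 at 2.22% (1 of 45, 0.0562 to 11.8). Cluster 6 held 71.0% of DP TRAV14D-3-DV8 cells (64.5 to 77.0) and 45.8% of all DP chains. The J partners differed as well: the median TRAJ number of TRAV14D-3-DV8 chains was 18 in cluster 6, 12 in cluster 8 and 42 in cluster 4. Chains were found in different parts of these clusters, with 1 productive chain in 580 of 832 cells of cluster 6, 214 of 769 of cluster 8 and 349 of 1187 of cluster 4. Whether TCR genes entered the authors' clustering is not given in the sources used here. TRAV14D-2 was 4.31% of cluster 6 (2.81 to 6.30), 6.54% of cluster 8 (3.62 to 10.7) and 1.72% of cluster 4 (0.633 to 3.70).

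TRAV14D copies were joined mainly to J segments on the side of the constant gene, where TRAJ numbers are low. The median TRAJ number was 13 for TRAV14D-2 (order-statistic 95% interval 13 to 15) and 15 for TRAV14D-3-DV8 (15 to 17). It was 13 for TRAV14N-2, 22 for TRAV14N-3, 23 for TRAV14N-1, 31 for TRAV14-1, 32 for TRAV14-2 and 53 for TRAV14-3. TRAJ40 or higher, the V side of the J cluster, was used by 4.04% of TRAV14D-2 cells (8 of 198, 1.76 to 7.81) and 8.59% of TRAV14D-3-DV8 cells (153 of 1781, 7.33 to 9.99), against 78.6% of TRAV14-3 cells (74.6 to 82.1). The median TRAV14D-3-DV8 joint used a J segment 16.1 kb from TRAC, against 57.9 kb for TRAV14-3. Counting each different nucleotide sequence once, the TRAV14D-3-DV8 median was 21 (18 to 22). That of TRAV14N-1 was 22 (22 to 23), so the order of these copies by cells is not a clear order by sequences.

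**Figure D3:**
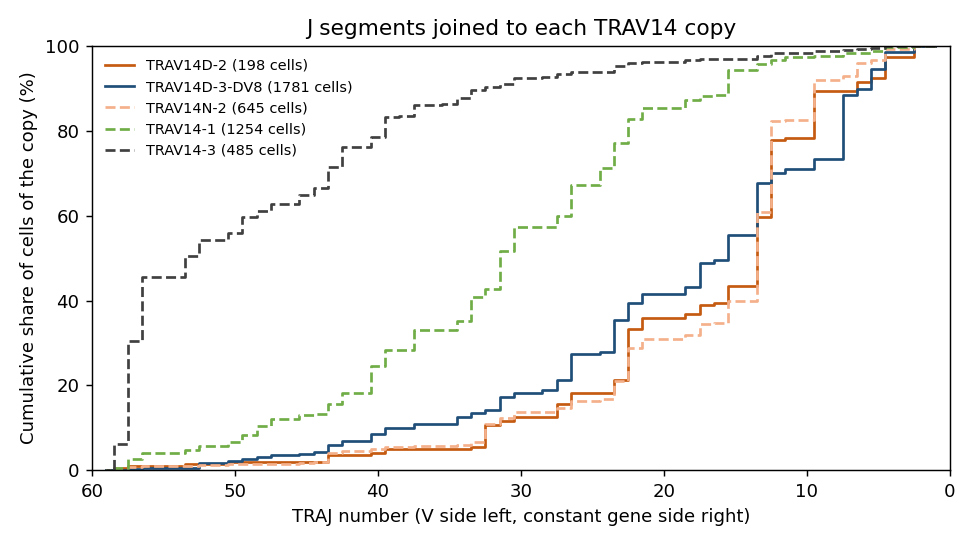
Cumulative share of the cells of a copy (y axis, percent) by TRAJ number of the joined segment (x axis, V side left, constant gene side right). Solid lines are TRAV14D-2 and TRAV14D-3-DV8, dashed lines TRAV14N-2, TRAV14-1 and TRAV14-3. TRAV14D-2 runs close to its twin TRAV14N-2, both with a median at TRAJ13, and TRAV14-3 has its median at TRAJ53.

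The 5 segments most used with TRAV14D-2 were TRAJ12 (36 of 198 cells, 18.2%), TRAJ13 (32 cells, 16.2%), TRAJ22 (24 cells, 12.1%), TRAJ9 (22 cells, 11.1%) and TRAJ32 (10 cells, 5.05%, level with TRAJ4). Those most used with TRAV14D-3-DV8 were TRAJ7 (269 of 1781 cells, 15.1%, 13.5 to 16.9), TRAJ13 (219 cells, 12.3%, 10.8 to 13.9), TRAJ23 (137 cells, 7.69%), TRAJ26 (110 cells, 6.18%) and TRAJ15 (104 cells, 5.84%). TRAJ7 lies at chr14:54211470-54211528 and TRAJ13 at chr14:54205741-54205797. TRAJ7 was joined mostly to this V copy: of 305 cells with TRAJ7, 88.2% had TRAV14D-3-DV8. Of 546 cells with TRAJ13, 40.1% had TRAV14D-3-DV8 and 5.86% TRAV14D-2.

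The J partners of TRAV14D-3-DV8 cells differed by stage. Among its cells, TRAJ7 made up 3.74% for DP (1.63 to 7.23), 4.81% for CD4 SP (3.07 to 7.13), 14.3% for CD25+ TRP (11.3 to 17.6), 7.88% for Foxp3lo TRP (4.57 to 12.5), 21.9% for CD73- Treg (12.5 to 34.0) and 43.5% for CD73+ Treg (38.0 to 49.3). By cells, CD73+ Treg stood above all others with its interval apart. By different nucleotide sequences TRAJ7 made up 9.14% for CD73+ Treg (16 of 175, 5.32 to 14.4) against 5.04% for CD4 SP (17 of 337, 2.97 to 7.95), with overlapping intervals, and CD73- Treg was highest at 17.2% (10 of 58, 8.59 to 29.4). By different CDR3 amino acid sequences the order turned, at 6 of 159 for CD73+ Treg against 14 of 272 for CD4 SP. TRAJ13 made up 4.67% for DP (2.26 to 8.43), 16.7% for CD4 SP (13.5 to 20.4), 10.4% for CD25+ TRP (7.85 to 13.3), 26.6% for Foxp3lo TRP (20.7 to 33.2), 4.69% for CD73- Treg (0.977 to 13.1) and 6.13% for CD73+ Treg (3.73 to 9.41). By cells, Foxp3lo TRP stood highest, with its interval above that of every other population, and 37 of its 54 TRAJ13 cells had the same CDR3. By different nucleotide sequences TRAJ13 made up 13.2% for Foxp3lo TRP (20 of 151, 8.28 to 19.7) against 8.31% for CD4 SP (28 of 337, 5.59 to 11.8), and its interval overlapped that of each population. TRAJ12 made up 0.628% for CD4 SP (0.130 to 1.82) against 6.54% for DP (3.62 to 10.7).

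These folds stand among many. Among TRAJ segments used by 5% or more of TRAV14D-3-DV8 cells in either population, 5 of 9 (55.6%) were higher and 3 of 9 (33.3%) lower by 1.5-fold or more in CD4 SP against DP. In CD25+ TRP against CD4 SP, 1 of 7 (14.3%) was higher, TRAJ7, and 3 of 7 (42.9%) were lower. In Foxp3lo TRP against CD4 SP, 2 of 7 (28.6%) were higher, TRAJ7 and TRAJ13, and 3 of 7 (42.9%) were lower. In CD73+ Treg against CD4 SP, 2 of 8 (25%) were higher and 5 of 8 (62.5%) lower. A 1.5-fold difference in a single segment was therefore common, and the TRAJ7 ratio of CD73+ Treg over CD4 SP, at 9.05, was the highest of those 8. CD4 SP is the shared base of several of these comparisons. In CD73+ Treg against CD4 SP, TRAJ5 stood at 1.29% (0.353 to 3.27) and 8.58% (6.23 to 11.5), TRAJ17 at 1.94% (0.714 to 4.16) and 8.58% (6.23 to 11.5), and TRAJ23 at 2.90% (1.34 to 5.44) and 8.79% (6.41 to 11.7). These shares are parts of a whole in which TRAJ7 took 135 of 310 CD73+ Treg cells (43.5%). A high TRAJ7 share lowers those of the other segments, so the lower values are not separate results. They were not computed without TRAJ7 or by different sequences.

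**Figure D4:**
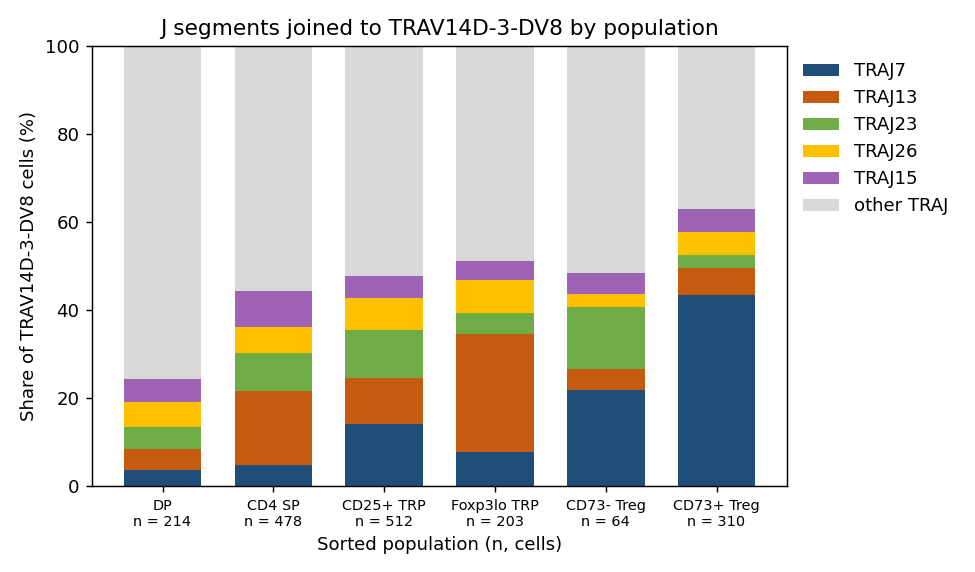
Share of TRAV14D-3-DV8 cells (y axis, percent) joined to each of the 5 most used TRAJ segments or to any other, by sorted population (x axis, with the number of cells). TRAJ7 takes 43.5% in CD73+ Treg and 4.81% in CD4 SP. TRAJ13 takes 26.6% in Foxp3lo TRP.

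TRAV14D-3-DV8 carried 912 different CDR3 amino acid sequences, of which 728 were seen in 1 cell, and TRAV14D-2 carried 120, of which 100 were seen in 1 cell. A list of the 10 most frequent was drawn anew within each population, so its sequences differ between populations. These 10 held 7.01% of TRAV14D-3-DV8 cells for DP (3.98 to 11.3), 27.0% for CD4 SP (23.1 to 31.2), 25.8% for CD25+ TRP, 33.5% for Foxp3lo TRP, 37.5% for CD73- Treg and 50.0% for CD73+ Treg (44.3 to 55.7). A top 10 is a larger part of a smaller group, and CD73- Treg had 64 cells. The 3 leading CDR3 of TRAV14D-3-DV8 were 1 with TRAJ13 (122 cells) and 2 of equal length with TRAJ7 (101 and 100 cells), called A and B here and the TRAJ7 pair together. The leading CDR3 of TRAV14D-2 were the same TRAJ13 sequence (20 cells) and 1 with TRAJ12 (19 cells).

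Nucleotide forms of these CDR3 are shown because they say how many bases each joint holds outside the germline. Each line runs 5′ to 3′, counts the cells of TRAV14D-3-DV8, or of TRAV14D-2 in the last line, and has in capitals the bases that match neither the end of the germline V gene nor the germline J segment.
leading TRAJ13 CDR3, 113 cells: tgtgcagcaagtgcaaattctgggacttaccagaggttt
TRAJ7 CDR3 A, 50 cells: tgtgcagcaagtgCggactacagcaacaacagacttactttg
TRAJ7 CDR3 A, 37 cells: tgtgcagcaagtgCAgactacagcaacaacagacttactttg
TRAJ7 CDR3 B, 41 cells: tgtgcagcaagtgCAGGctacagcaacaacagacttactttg
TRAJ7 CDR3 B, 26 cells: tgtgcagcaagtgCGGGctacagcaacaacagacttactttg
leading TRAJ12 CDR3, 9 cells: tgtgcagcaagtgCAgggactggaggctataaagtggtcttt
The TRAJ13 form holds 0 bases outside the germline segments, and it was found with other TRAV14 copies in 94 further cells. The forms of the TRAJ7 pair hold 1 to 5 such bases. The pair had 13 different nucleotide sequences in 201 cells of TRAV14D-3-DV8, 5 for A and 8 for B. Cells are not tied to mice by the labels, so how many mice carried each form cannot be given.

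The TRAJ7 pair was nearly always on TRAV14D-3-DV8, in 201 of 204 cells, and the other 3 had TRAV14N-1. In DP, however, it was on TRAV14D-3-DV8 in 1 of 3 cells, against 131 of 132 in CD73+ Treg. It was found in 1 of 214 DP cells with the copy, 0 of 478 CD4 SP, 51 of 512 CD25+ TRP (9.96%, 7.51 to 12.9), 8 of 203 Foxp3lo TRP (3.94%, 1.72 to 7.62), and 10 of 64 CD73- Treg (15.6%, 7.76 to 26.9). Among CD73+ Treg it was in 131 of 310 cells with the copy (42.3%, 36.7 to 48.0). CD73+ Treg held it highest, and none of the CD4 SP cells had it. The pair was 97.0% of TRAJ7 use with the copy in CD73+ Treg and 69.9% in CD25+ TRP. In CD73+ Treg it had 12 nucleotide sequences. Without the pair, TRAV14D-3-DV8 made up 19.4% of the remaining CD73+ Treg cells (179 of 925, 16.9 to 22.0), against 25.9% for CD4 SP, where no cell was removed. The pair was chosen for its frequency with this copy, so a lower share without it follows from the choice. Counting different nucleotide sequences, the copy was 22.3% for CD73+ Treg (19.5 to 25.4) against 26.0% for CD4 SP (23.6 to 28.4), with overlapping intervals. The median TRAJ number of the copy in CD73+ Treg was 7 by cells, 17 by different sequences (15 to 22) and 18 without the pair (15 to 22). In CD4 SP it was 17 by cells (15 to 17) and 18 by different sequences (17 to 21).

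The pair was spread unevenly over the clusters of CD73+ Treg. Of the 131 cells, 66 were in cluster 3, 40 in cluster 7 and 1 in cluster 9. TRAV14D-3-DV8 was 44.7% of chains in cluster 7 (51 of 114, 35.4 to 54.3), 32.3% in cluster 3 (119 of 368, 27.6 to 37.4) and 17.5% in cluster 9 (41 of 234, 12.9 to 23.0). Cluster 9 stood below clusters 7 and 3 with its interval apart. The share of the copy did not follow the pair in every cluster. Cluster 14 was higher, at 53.6% (15 of 28, 33.9 to 72.5), with 0 cells of the pair and an interval that overlapped that of cluster 7. Cluster 10 was lower, at 8.70% (4 of 46, 2.42 to 20.8), with 1 cell of the pair and an interval that overlapped that of cluster 9. In CD25+ TRP the pair was in 21 cells of cluster 7 and 19 of cluster 5.

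The leading TRAJ13 CDR3 was carried with several V copies, in a split that differed by population. Over all populations 227 cells had it, 122 with TRAV14D-3-DV8, 78 with TRAV14N-2 and 20 with TRAV14D-2. TRAV14D-3-DV8 held 2 of 11 such cells in DP (18.2%, 2.28 to 51.8), 51 of 113 in CD4 SP (45.1%, 35.8 to 54.8), 28 of 60 in CD25+ TRP (46.7%, 33.7 to 60.0) and 37 of 38 in Foxp3lo TRP (97.4%, 86.2 to 99.9). TRAV14D-2 or TRAV14N-2 held 58 of 113 in CD4 SP, 32 of 60 in CD25+ TRP and 1 of 38 in Foxp3lo TRP. The interval of Foxp3lo TRP thus stood apart from those of DP, CD4 SP and CD25+ TRP although the CDR3 was the same. For the form with 0 bases outside the germline segments, TRAV14D-3-DV8 held 48 of 102 cells in CD4 SP (47.1%, 37.1 to 57.2), 26 of 55 in CD25+ TRP (47.3%, 33.7 to 61.2) and 34 of 35 in Foxp3lo TRP (97.1%, 85.1 to 99.9). CD73- Treg and CD73+ Treg had 1 and 4 cells with this CDR3, too few to read a split.

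The split also differed between clusters. In cluster 0, which held 22 of the 38 Foxp3lo TRP cells, TRAV14D-3-DV8 carried 10 of 13 in CD4 SP, 7 of 8 in CD25+ TRP and 22 of 22 in Foxp3lo TRP. In cluster 1 it carried 4 of 32 in CD4 SP, 3 of 16 in CD25+ TRP and 4 of 4 in Foxp3lo TRP. In cluster 2, which held 45 of the 113 CD4 SP cells with this CDR3, it carried 24 of 45 in CD4 SP and 4 of 15 in CD25+ TRP. In cluster 10 it carried 4 of 8 in CD4 SP, 4 of 8 in CD25+ TRP and 6 of 7 in Foxp3lo TRP, and in cluster 12 it carried 4 of 7 in CD4 SP, 2 of 3 in CD25+ TRP and 5 of 5 in Foxp3lo TRP. The identical pair of copies was not missing from Foxp3lo TRP as such: the leading TRAJ12 CDR3 was carried there by 15 TRAV14N-2, 3 TRAV14D-2 and 0 TRAV14D-3-DV8 cells.

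**Figure D5:**
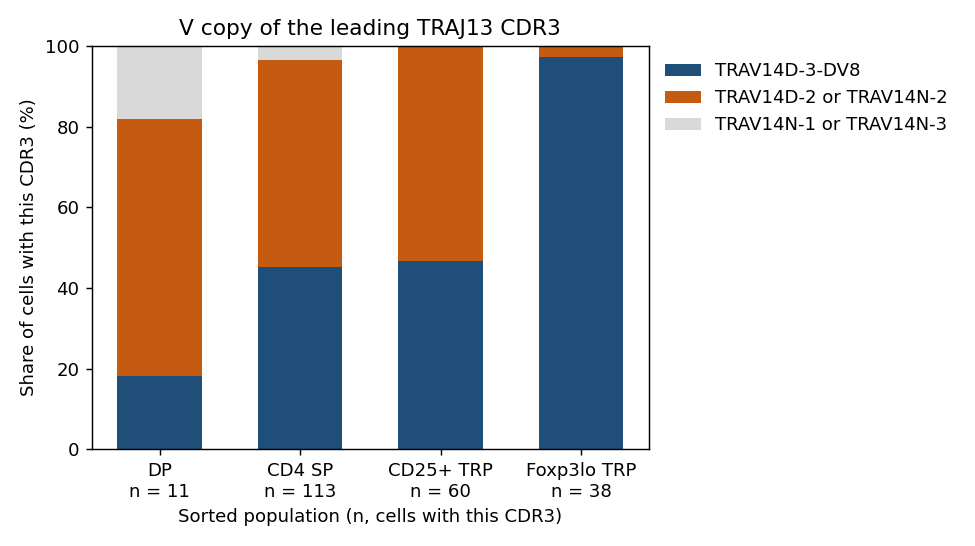
V copy of the cells that carry the leading TRAJ13 CDR3, as a share of those cells (y axis, percent) in the 4 populations with more than 4 such cells (x axis, with the number of cells). TRAV14D-3-DV8 carries 51 of 113 in CD4 SP, 28 of 60 in CD25+ TRP and 37 of 38 in Foxp3lo TRP.

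The other 7 of the 10 most frequent CDR3 of TRAV14D-3-DV8 were carried by 14 to 28 cells each. Leading forms of a TRAJ23 sequence and of a TRAJ7 sequence shorter than the pair are shown because their stages differ, with capitals as above.
TRAJ23 CDR3, 14 cells: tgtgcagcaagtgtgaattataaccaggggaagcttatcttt
shorter TRAJ7 CDR3, 7 cells: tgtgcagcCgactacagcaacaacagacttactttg
The TRAJ23 sequence was on this copy in 28 of 28 cells, with 7 nucleotide sequences. It was in 0 DP cells, 6 CD4 SP cells, 16 CD25+ TRP cells, 4 Foxp3lo TRP cells, 1 CD73- Treg cell and 1 CD73+ Treg cell. The shorter TRAJ7 sequence was on it in 15 of 16 cells, and its stages ran against those of the TRAJ7 pair, with 2 DP cells, 10 CD4 SP cells, 3 CD25+ TRP cells and 0 in each of the others. A TRAJ5 sequence was on this copy in 15 of 15 cells and a TRAJ22 sequence in 19 of 23. A second TRAJ23 sequence and a TRAJ17 sequence were on it in 18 of 20 cells each, and a second TRAJ13 sequence in 14 of 30.

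The frequent CDR3 of TRAV14D-2 were shared with other copies. Of the 95 cells with the leading TRAJ12 CDR3, 19 had TRAV14D-2, 66 had TRAV14N-2 and 0 had TRAV14D-3-DV8. The other 8 of its 10 most frequent CDR3 were carried by 3 to 6 TRAV14D-2 cells each, with TRAJ9, TRAJ12, TRAJ13, TRAJ15, TRAJ22 or TRAJ32. Each of these 10 was also carried by other V genes.

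CDR3 sharing was counted over different sequences. Of the 120 CDR3 of TRAV14D-2, 69 (57.5%, 48.1 to 66.5) were also found with another TRAV14 copy, and they were carried by 147 of its 198 cells. TRAV14N-2 held 38 of them, which is 31.7% of the TRAV14D-2 list and 13.1% of the TRAV14N-2 list. Of the 912 CDR3 of TRAV14D-3-DV8, 245 (26.9%, 24.0 to 29.9) were shared, carried by 748 of 1781 cells. TRAV14-1 shared 90 of them (9.87% of the TRAV14D-3-DV8 list and 12.0% of the TRAV14-1 list) and TRAV14N-1 82 (8.99% and 13.5%). TRAV14D-3-DV8 and TRAV14D-2 shared 22, or 2.41% of the list of TRAV14D-3-DV8 and 18.3% of that of TRAV14D-2. By nucleotide sequence and J segment, 68 of 144 TRAV14D-2 sequences (47.2%) and 183 of 1117 TRAV14D-3-DV8 sequences (16.4%) were shared.

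The joints of the copies were alike in length. The median CDR3 had 13 residues with TRAV14D-2 and 14 with TRAV14D-3-DV8. Joints without a base outside the germline V and J segments made up 10.4% of different TRAV14D-2 sequences (5.95 to 16.6) and 7.70% of different TRAV14D-3-DV8 sequences (6.20 to 9.42), against 9.48% for TRAV14N-2 (6.62 to 13.1). By cells the shares were higher, at 18.7% for TRAV14D-2, 15.3% for TRAV14D-3-DV8 and 27.6% for TRAV14N-2. Within TRAV14D-3-DV8 such joints were in 12.1% of cells for DP (8.09 to 17.3), 20.9% for CD4 SP (17.4 to 24.8), 14.1% for CD25+ TRP, 23.6% for Foxp3lo TRP (18.0 to 30.1), 7.81% for CD73- Treg and 6.77% for CD73+ Treg (4.24 to 10.2). By different sequences the shares lay closer together and the order of CD4 SP and CD73+ Treg turned. They were 12.1% for DP, 8.61% for CD4 SP (5.84 to 12.1), 7.77% for CD25+ TRP, 7.95% for Foxp3lo TRP, 8.62% for CD73- Treg and 9.14% for CD73+ Treg (5.32 to 14.4), with intervals that all overlapped.

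A second productive α chain was rare. Of 330 cells with 2 productive α chains, which were left out of all counts above, 132 had a TRAV14D chain and in 126 of those the second chain was also of the TRAV14 family. In 0 of the 132 did both chains have the same CDR3 nucleotide sequence, and 2 of the 330 had a TRAV14D-2 and a TRAV14N-2 chain. How doublets were handled is not given in the sources used here.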

How the data were processed

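Libraries for gene expression, hashtags and TCRα were made from 1 pool of cells with the 10x Genomics 5′ kit, per the labels' protocols. Seurat 3.1.1 and Cell Ranger 3.1.0 are named, without roles, in the submitters' processing notes, as are GRCm38 and mm10. UMI counts per gene were deposited by the authors as a matrix, used here for depth only, with 12208 cells (medians of 1457 to 3248 UMIs by population). The contig table deposited by the authors holds counts of reads and of UMIs, gene calls, CDR3 and a contig length that is treated as a score in bases. Cluster numbers are labels from the deposited metadata. The hashtag class called Treg was taken to be CD73- Treg, as the remaining 5 classes have names of their own. Metadata were joined to barcodes by row order, and the clonotype matched for 6982 of 6982 cells.

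Shares have exact Clopper-Pearson 95% intervals (SciPy 1.17.1), and in fold ratios a count of 0 was set to 3 cells. Medians have order-statistic intervals. All 106 TRAV and TRAJ genes were found in GENCODE M21 (GRCm38), the source of coordinates and transcript sequences. In a CDR3, germline V was the longest match from the start and germline J the longest match of 9 or more bases from the end. A TRAV share was called different at 1.5-fold where it was 1% or more in either population, and a TRAJ share where it was 5% or more. This fold rule was set after seeing the data. Intervals and the joint split were tested on simulated data. Named were all 3 copies, their 5 most used TRAJ and 10 most frequent CDR3, given by J segment. TRAJ12, TRAJ5 and TRAJ17 with TRAV14D-3-DV8 were named after their values were seen. The members and lists were chosen with earlier results of these data known. A normalized matrix and a CDR3 count table were not used.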

Additional observations from a re-analysis of the deposited data

Results flagged for a closer look

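Barcodes outside the expression matrix held 2226 productive TRAV14D contigs, which no comparison above uses and which have no hashtag. TRAV14D-3-DV8 made up 2027 of the 7987 productive α contigs there (25.4%, 24.4 to 26.3), TRAV14D-2 199 (2.49%, 2.16 to 2.86) and TRAV14D-1 0.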

How the results depend on the processing

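Of 183 values recomputed over 47 results, 153 stayed within the interval first reported and 30 did not. Part of the 183 could hardly move, so the count of 153 is no measure of stability. Medians as distance to TRAC in kb restate the median TRAJ numbers, and leaving out cells cannot change a TRAV14D-1 count of 0. A limit of 3 or more UMIs per contig kept 6971 of 6982 chains. With identical copies as 1 gene, TRAV14D-1 stood at 14.3% and TRAV14D-2 at 10.8% for DP, 15.8% for CD4 SP, 12.2% for CD25+ TRP, 11.7% for Foxp3lo TRP, 9.87% for CD73- Treg and 7.47% for CD73+ Treg. Without CDR3 nucleotide sequences found with several copies, TRAV14D-2 was 1.31% of CD4 SP, 1.88% of CD25+ TRP and 0.607% of Foxp3lo TRP with a median TRAJ number of 16.5, and TRAV14D-3-DV8 was 30.3% of CD4 SP and 33.0% of CD25+ TRP. By different sequences TRAV14D-3-DV8 was 22.3% of CD73+ Treg, with median TRAJ numbers of 21 over all populations, 18 for CD4 SP, 18 for Foxp3lo TRP and 17 for CD73+ Treg. Without the TRAJ7 pair it was 26.6% of CD25+ TRP and 19.4% of CD73+ Treg, with a median TRAJ number of 18 there, and without cluster 9 it was 32.7% of CD73+ Treg. Shared CDR3 by nucleotide sequence were 47.2% for TRAV14D-2 and 16.4% for TRAV14D-3-DV8. Without the cells highest in UMIs, cluster 3 held 100% of the 2 remaining TRAV14D-2 cells of CD73- Treg. The TRAJ7 and TRAJ13 shares by different sequences, given above, and the settings for identical copies, the TRAJ7 pair and cluster 9 were chosen after seeing the data. Causes were not tested. No paired analysis was possible because each population is 1 sample. CD73- Treg had 223 chains, DP had the lowest median depth, at 1457 UMIs, and the lowest share of cells with 1 chain, at 41.9%.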
